A study of Mus musculus with 2 samples.

Results

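The CXCR3 chemokines Cxcl9, Cxcl10 and Cxcl11, the related chemokine Cxcl16, and the receptors Cxcr3 and Cxcr6 were followed by name through 2 single-cell RNA sequencing libraries of YUMMER1.7 melanoma, a mouse melanoma line of high immunogenicity. These are 6 genes of 32285 features, and 5 of them had a value. Cxcl11 was not analysed here. The control library pooled tumors of 3 mice labelled C57BL/6, which the study's methods describe as Cdh5-CreERT2 mice with the ZsGreen reporter. The Dnmt1iECKO library pooled tumors of 3 Cdh5CreERT2;Dnmt1fl/fl;ZsGreenlsl/lsl mice, in which tamoxifen-activated Cre under the Cdh5 promoter deletes the DNA methyltransferase gene Dnmt1 in endothelial cells (ECs) of every organ. All mice were females of 8 to 10 weeks, both groups carried the reporter and Cre according to the methods, and live CD31+CD45- cells were sorted from both. The labels describe subcutaneous tumors while the methods describe lung tumors, and lung EC classes and alveolar epithelium were present in both libraries. There was 1 library per condition, so a difference between libraries has no replicate check, no p-value was computed, and every interval is a 95% interval that covers counting error only.

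The control library held 9301 cells and 123830489 UMIs (unique molecular identifiers, each standing for 1 captured transcript), and the Dnmt1iECKO library 9522 cells and 141433493 UMIs, with medians of 8904 and 8762 UMIs per cell. After filters and removal of doublets, 7764 and 7839 cells were analysed. Despite the CD45- sort, cells of immune clusters were 1239 of the control (a share of 15.2 to 16.8%) and 4323 of the Dnmt1iECKO cells (54.0 to 56.3%). The libraries shared 29 cell barcodes. Dnmt1 was at 51.4 CPM (UMIs of a gene per 1000000 UMIs of the class) in control ECs and at 27.9 CPM in Dnmt1iECKO ECs, against 41.2 and 39.0 CPM in macrophages and 87.2 and 82.8 CPM in T cells. These are 3′ tags, which need not lie in the deleted exons.

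Cxcl9, Cxcl10 and Cxcl11 are secreted chemokines induced by interferon-γ, and they attract activated T cells and natural killer cells through the receptor CXCR3. Cxcl16 is made as a membrane-anchored chemokine, shed by the protease ADAM10, and is the ligand of CXCR6, a receptor of effector and tissue-resident T cells. In tumors these ligands are known from macrophages, dendritic cells, fibroblasts and inflamed endothelium, and the C57BL/6 strain carries a frameshifted Cxcl11.

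Cxcl9 (ENSMUSG00000029417) and Cxcl10 (ENSMUSG00000034855) are neighbours on the minus strand of chromosome 5, at 92321347-92328079 and 92346638-92348889 in GRCm38, separated by 18558 bases. Cxcl11 (ENSMUSG00000060183), annotated as a polymorphic pseudogene, follows at 92359544-92365485. Cxcl16 (ENSMUSG00000018920) lies on chromosome 11 at 70453983-70459984 on the minus strand, Cxcr6 (ENSMUSG00000048521) on chromosome 9 at 123806475-123811760 on the plus strand, and Cxcr3 (ENSMUSG00000050232) on chromosome X at 101731535-101734269 on the minus strand.

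The promoters of Cxcl9 and Cxcl10 are shown because their transcripts were found together in the same cells. RefSeq promoters of build GRCm38.p6 were matched for 4 of the 6 genes. The 250 bases before each start were searched on both strands, and 2 of the motifs searched are reported here, the core of the interferon-stimulated response element (ISRE, GAAANNGAA) and the NF-κB site (kB, GGANNNNCC). Capitals mark the matches.
Cxcl9, chr5:92328080-92328329, minus strand: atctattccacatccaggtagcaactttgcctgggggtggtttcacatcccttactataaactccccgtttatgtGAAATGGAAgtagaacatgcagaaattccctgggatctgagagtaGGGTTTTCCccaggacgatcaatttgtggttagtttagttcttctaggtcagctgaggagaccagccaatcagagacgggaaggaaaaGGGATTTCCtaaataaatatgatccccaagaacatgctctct
Cxcl10, chr5:92348890-92349139, minus strand: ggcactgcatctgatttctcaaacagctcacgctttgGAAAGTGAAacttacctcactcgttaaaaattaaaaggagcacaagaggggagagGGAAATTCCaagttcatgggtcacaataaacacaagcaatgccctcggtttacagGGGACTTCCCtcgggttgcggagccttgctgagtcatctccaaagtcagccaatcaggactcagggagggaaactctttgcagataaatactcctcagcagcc
The Cxcl10 window held 1 match of the ISRE core, 213 to 205 bases before the start, and kB letters at 158 to 150 bases before the start and again at 103 to 94 bases before it, each on both strands. The Cxcl9 window held 1 match of the ISRE core, 175 to 167 bases before the start, and kB letters on the opposite strand at 130 to 122 and at 42 to 34 bases before it. Neither motif was in the windows of Cxcr3 and Cxcr6. Of 32851 promoters, 7.13% held the ISRE core and 42.3% the kB letters, so a kB match alone is common.

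ECs were cells of endothelial clusters carrying Cdh5 or Pecam1 (1 UMI or more) and no UMI of Ptprc, the gene of CD45. They numbered 4610 in the control library and 1908 in the Dnmt1iECKO library, 59.4% and 24.3% of the analysed cells, with all 10 endothelial markers detected in both. Cells with at least 2 UMIs of Ubd, a ubiquitin-like modifier that is itself induced by interferon-γ, formed the Ubd class. The remaining ECs were placed by the highest summed pair of Slc6a2 and Selp (venous), Ednrb and Car4 (aerocyte, a lung capillary type) or Kit and Bmp6 (general capillary), again with at least 2 UMIs, or else counted as other ECs.

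Cxcl9 had more UMIs in Dnmt1iECKO ECs, and most of them came from few cells. In control ECs 2744 UMIs gave 50.8 CPM (48.9 to 52.8), and in Dnmt1iECKO ECs 3086 UMIs gave 129 CPM (124 to 133). The log2 ratio was 1.34 (1.27 to 1.42). The share of ECs with a Cxcl9 UMI was 5.31% (4.69 to 6.00) in the control and 9.22% (7.96 to 10.6) in the Dnmt1iECKO library, and after thinning each cell to 2000 UMIs it was 2.46% and 4.62%. Among cells with a UMI the mean was 11.2 UMIs in the control and 17.5 in the Dnmt1iECKO library. Of the 3 ligands measured, Cxcl9 was the only one past 2-fold over all ECs, where 3.52% of all genes tested were past 2-fold higher and 2.27% past 2-fold lower.

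Cxcl9 in ECs was held mainly by the Ubd class. This class had 103 control cells, 2.23% (1.83 to 2.70) of ECs, and 102 Dnmt1iECKO cells, 5.35% (4.38 to 6.45) of ECs. Its Cxcl9 level was 619 CPM (589 to 650) in the control and 977 CPM (939 to 1017) in the Dnmt1iECKO library, with a log2 ratio of 0.66 (0.57 to 0.75). The share of its cells with Cxcl9 was 61.2% (51.1 to 70.6) and 63.7% (53.6 to 73.0), so the libraries overlapped in the share while differing in UMIs. The class held 59.0% of the Cxcl9 UMIs of control ECs and 80.4% of those of Dnmt1iECKO ECs. Its cells were deep, with medians of 22398 and 20901 UMIs, and after thinning Ubd itself was seen in 61 of 4343 control ECs (1.40%) and in 74 of 1775 Dnmt1iECKO ECs (4.17%).

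Markers of some other cell types moved with this difference, and their part in it was not tested. A list of 12 dendritic markers summed to 162 CPM in control and 159 CPM in Dnmt1iECKO ECs. In the Ubd class the dendritic list summed to 206 and 231 CPM, with 5 and 6 of its genes detected. The summed level of a list of 10 macrophage markers was 73.3 CPM in control and 97.1 CPM in Dnmt1iECKO ECs, and 33.6 and 98.5 CPM in the Ubd class. Adgre1 was at 0 in the Ubd class of both libraries and Csf1r in that of the control. Fibroblast markers summed to 11.1 and 43.3 CPM in the Ubd class, with Dcn, Col1a2, Lum and Mfap5 at 0 in the control and Tcf21 at 0 in the Dnmt1iECKO library, against 10056 and 12922 CPM in stroma. T-cell markers summed to 2.68 and 11.4 CPM, with 5 and 2 of 8 at 0. The complement genes C1qa, C1qb and C1qc summed to 4.97 and 11.8 CPM in the Ubd class, against 4209 and 4335 CPM in macrophages. At least 1 UMI of these genes was in 142 control and 185 Dnmt1iECKO ECs, and without these cells the log2 ratio of Cxcl9 was 1.08 over all ECs and 0.19 in the Ubd class, an alternative chosen after the data were seen.

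**Figure D1:**
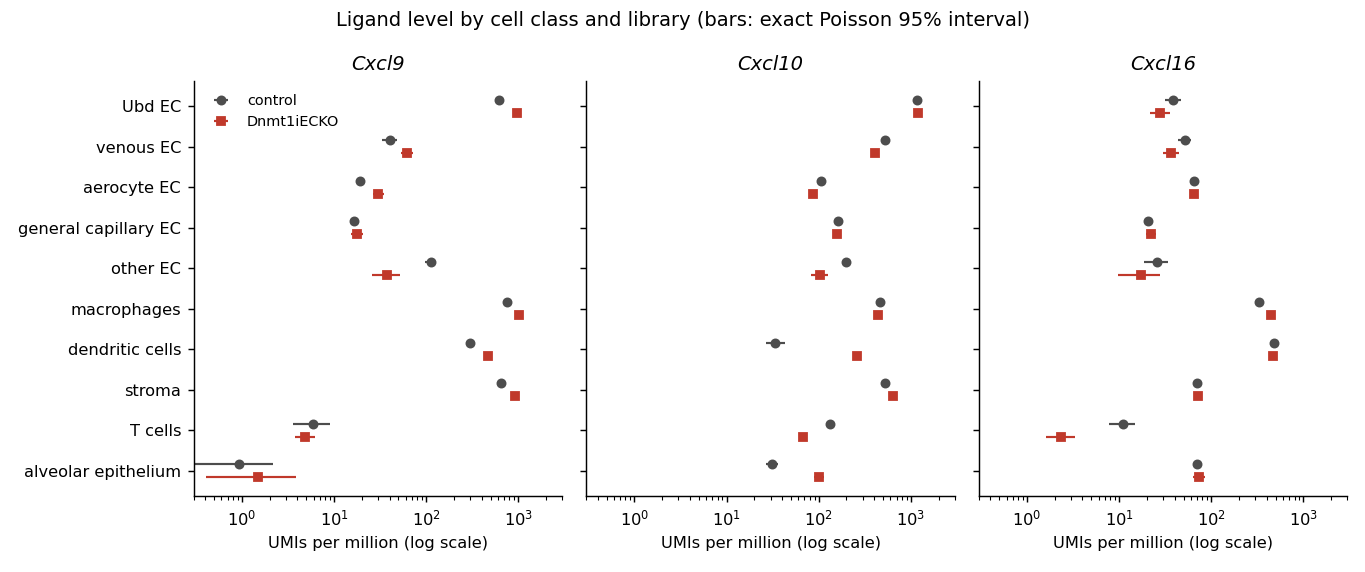
Level of Cxcl9, Cxcl10 and Cxcl16 in CPM on a log axis, by cell class, in the control (grey circles) and Dnmt1iECKO (red squares) libraries, with exact Poisson 95% intervals. Cxcl9 in the Ubd class sat at 619 and 977 CPM, above all other EC classes, and alveolar epithelium, taken here as background for it, sat at 0.93 and 1.51 CPM.

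Outside the Ubd class Cxcl9 was low. Over all other ECs it was 21.9 CPM in the control library and 28.3 CPM in the Dnmt1iECKO library, giving a log2 ratio of 0.37 (0.22 to 0.51) that was -0.04 without the 10 highest cells, and no ligand was past 2-fold there (3.24% of all genes higher, 2.21% lower). In venous ECs, the site where leukocytes leave the blood, it was 40.0 and 61.9 CPM, but 10 cells held 96.3% and 95.9% of those UMIs. In aerocytes it was 19.0 and 30.2 CPM (log2 ratio 0.67, 0.41 to 0.92), and without the 10 highest cells of each library the ratio was -0.17 (-0.66 to 0.29). General capillary ECs, the most numerous class, had 16.4 and 17.9 CPM (log2 ratio 0.12, -0.13 to 0.36). After thinning, Cxcl9 was in 1.88% and 3.11% of aerocytes and in 1.19% and 1.65% of general capillary ECs. Alveolar epithelium, taken here as background, gave 0.37% (0.01 to 2.06) in the control. It gave 0 of 103 cells in the Dnmt1iECKO library, which allows a share of up to 2.91%. The shares of aerocytes and general capillary ECs were thus not separable from the epithelium at this depth. The CPM of both EC classes was above the 0.93 and 1.51 CPM of the epithelium.

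Other ECs went the opposite way for Cxcl9, from 112 to 37.5 CPM (log2 ratio -1.58, -2.14 to -1.06), with 10 cells holding 96.4% of the control UMIs and all of the Dnmt1iECKO UMIs. The direction turned with the definition of the class, to 0.74 by the gate alone and 0.47 with clusters in place of the gates. Their median depth was 2674 and 2546 UMIs, and 3.27% of all genes were past 2-fold higher and 4.53% lower there. No ligand was past 2-fold in the Ubd class (2.87% of all genes higher, 1.36% lower), in venous ECs (2.21% and 1.97%), in aerocytes (1.77% and 2.73%) or in general capillary ECs (2.59% and 2.02%). For Cxcl9 this changed under other settings. With clusters in place of the gates its log2 ratio was 1.99 in venous and 1.61 in general capillary ECs. In aerocytes it was 1.51 as a mean over cells and 1.39 when thinned. In venous ECs it was 1.36 without cells with Epcam, Cspg4 or Myh11. In general capillary ECs it was 1.04 by the gate alone, -0.51 with gates at 1 UMI and -0.66 when thinned.

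**Figure D2:**
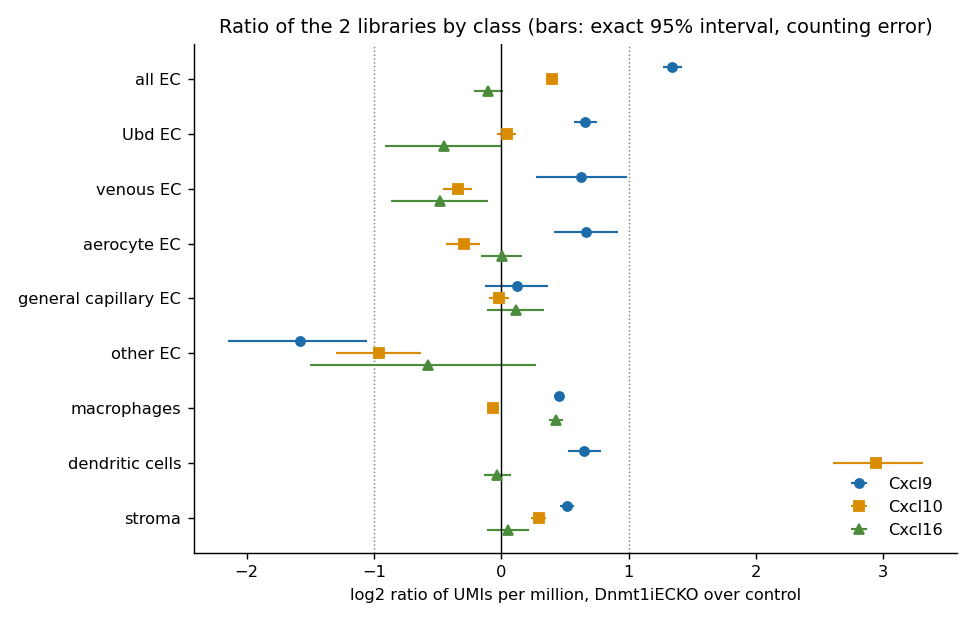
Log2 ratio of CPM, Dnmt1iECKO over control, for the 3 ligands by class, with exact 95% intervals for counting error, and dotted lines at 2-fold. Over all ECs Cxcl9 was at 1.34, while within the Ubd, venous, aerocyte and general capillary classes it lay between 0.12 and 0.67.

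ECs were also grouped by their own Ubd UMIs, a split chosen after the data were seen. It uses a gene that interferon-γ induces, as it does Cxcl9. Among ECs with no Ubd UMI, Cxcl9 was 18.5 CPM (17.3 to 19.7) in the control and 19.8 CPM (18.0 to 21.8) in the Dnmt1iECKO library, and the log2 ratio of 0.10 (-0.07 to 0.27) spanned 0. With 1 Ubd UMI it was 156 and 303 CPM, with 2 to 3 UMIs 145 and 166 CPM, with 4 to 9 UMIs 473 and 714 CPM, and with 10 or more UMIs 1005 and 1375 CPM. Cxcl9 was thus higher in each Ubd-positive group than in Ubd-negative cells of the same library. The CPM of the Dnmt1iECKO library was higher in all 4 Ubd-positive groups, with intervals of the ratio clear of 0 except at 2 to 3 UMIs. These groups had only 24 to 69 cells per library, and they were not repeated without their highest cells. At 10 or more Ubd UMIs the share of cells with Cxcl9 went the other way. It was 79.5% (63.5 to 90.7) of 39 control and 69.2% (54.9 to 81.3) of 52 Dnmt1iECKO cells. In the other Ubd-positive groups the share was higher in the Dnmt1iECKO library, with overlapping intervals. Of ECs with Cxcl9, 32.7% (26.8 to 38.9) also had Ubd in the control and 47.2% (39.6 to 54.8) in the Dnmt1iECKO library. Giving both libraries the class makeup of the control put Cxcl9 over all ECs at 50.8 and 71.6 CPM, giving a log2 ratio of 0.49.

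**Figure D3:**
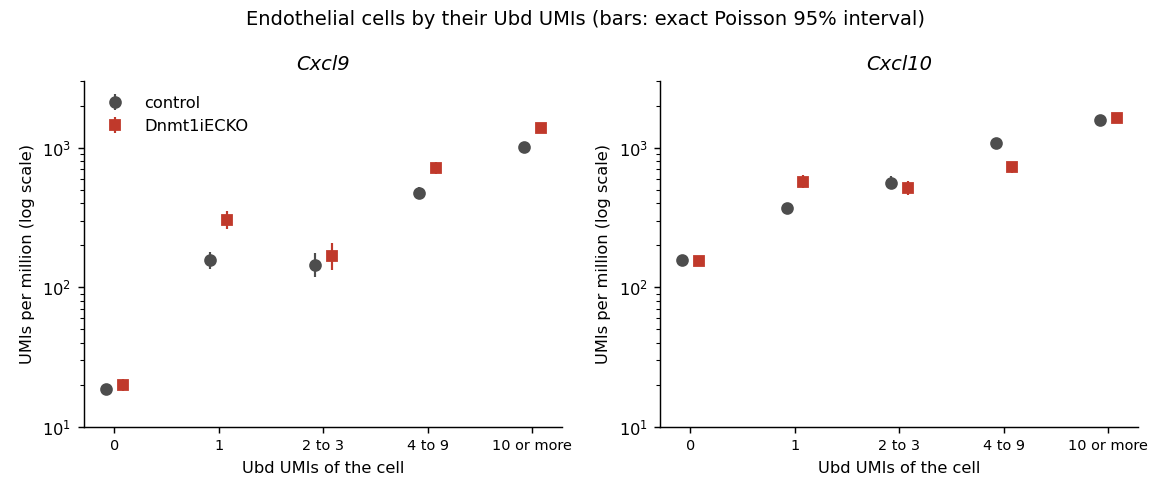
Cxcl9 (left) and Cxcl10 (right) in CPM on a log axis in ECs grouped by their Ubd UMIs, control as grey circles and Dnmt1iECKO as red squares, with exact Poisson 95% intervals. At 0 Ubd UMIs the libraries coincided for both ligands, at 18.5 and 19.8 CPM for Cxcl9 and at 155 and 154 CPM for Cxcl10, and both ligands were at their highest in cells with 10 or more Ubd UMIs.

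Single cells accounted for much of the EC Cxcl9. The highest EC held 142 Cxcl9 UMIs in the control and 283 in the Dnmt1iECKO library. The 10 highest ECs held 36.9% and 51.6% of the UMIs, and 50% was reached by 17 control and 10 Dnmt1iECKO cells. Of these 10 cells, 9 were in the Ubd class in each library. They had 14 to 125 UMIs of Cdh5 in the control and 9 to 63 in the Dnmt1iECKO library, at depths of 8666 to 83164 and 14409 to 82733 UMIs. Cdh5 is part of the rule that picked ECs, so these UMIs do not show that a droplet held only 1 cell. C1q genes gave 7 UMIs in 1 of the 10 control cells and 4 UMIs over 4 of the 10 Dnmt1iECKO cells. Without the 10 highest cells of each library the log2 ratio over ECs was 0.97 (0.87 to 1.07).

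**Figure D4:**
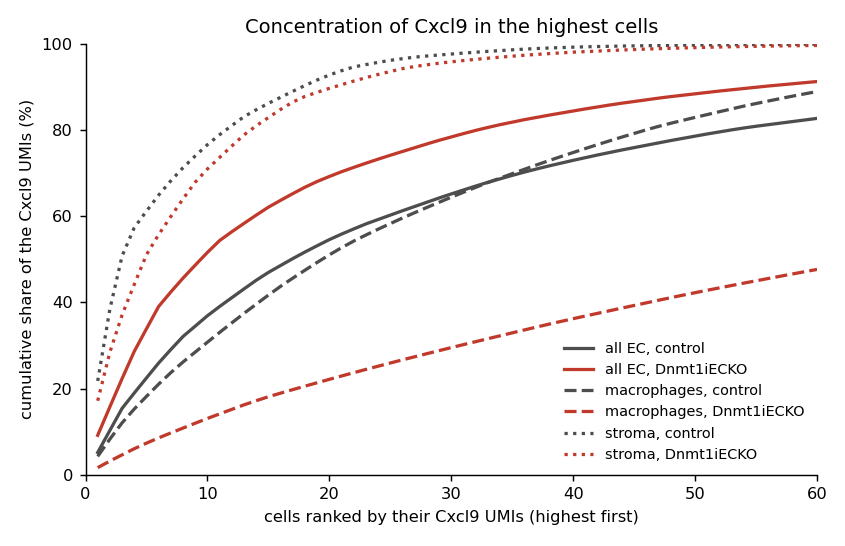
Cumulative share of the Cxcl9 UMIs (percent) over the 60 highest cells of ECs (solid), macrophages (dashed) and stroma (dotted), control in grey and Dnmt1iECKO in red. The curve was steepest in stroma, where 3 control and 5 Dnmt1iECKO cells held 50% of the UMIs, and flattest in Dnmt1iECKO macrophages, where 65 cells were needed.

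Cxcl10 was spread more widely over ECs and differed less between the libraries. It was 209 CPM (205 to 212) in ECs of the control and 275 CPM (268 to 282) in those of Dnmt1iECKO, giving a log2 ratio of 0.40 (0.35 to 0.44), and was seen in 20.2% and 21.6% of cells. In the Ubd class it was 1155 CPM (1114 to 1197) and 1190 CPM (1148 to 1233), and the log2 ratio of 0.04 spanned 0 (-0.03 to 0.12). Venous ECs had 521 and 411 CPM, and aerocytes 107 and 87.2 CPM, both lower in the Dnmt1iECKO library with log2 ratios of -0.34 and -0.30, which were -1.40 and -0.88 without the 10 highest cells of each library. These directions turned to 0.65 and 0.07 with clusters in place of the gates, and in aerocytes to 0.10 as a mean over cells and 0.26 when thinned. General capillary ECs had 161 and 159 CPM, and other ECs 200 and 103 CPM. Among Ubd-negative ECs the levels were 155 and 154 CPM (log2 ratio -0.01, -0.07 to 0.05). With the control's class makeup in both libraries Cxcl10 over all ECs was lower in the Dnmt1iECKO library, at 194 against 209 CPM, and its direction over ECs thus turned with the makeup. Alveolar epithelium showed 31.0 and 102 CPM, the latter with 161 of 269 UMIs in 1 cell, and without the highest cell 20.7 and 41.7 CPM. After thinning, Cxcl10 was in 5.22% and 3.88% of epithelial cells, in 7.26% and 8.30% of aerocytes and in 10.9% and 11.3% of general capillary ECs.

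Cxcl9 and Cxcl10 were detected together in ECs. Both were seen in 135 of 4610 control ECs, 2.93% (2.46 to 3.46), and in 107 of 1908 Dnmt1iECKO ECs, 5.61% (4.62 to 6.74). Cxcl10 was in 55.1% (48.6 to 61.4) of control ECs with Cxcl9 and in 18.2% (17.1 to 19.4) of those without, and in 60.8% (53.2 to 68.1) and 17.7% (15.9 to 19.5) in the Dnmt1iECKO library. Cells with both ligands were deeper, with medians of 21121 and 20113 UMIs, than cells with neither, at 9364 and 9062 UMIs. After thinning, the shares with both were 0.99% and 2.03%, and Cxcl10 was in 40.2% of Cxcl9-positive and 10.4% of Cxcl9-negative control ECs, and in 43.9% and 11.2% in the Dnmt1iECKO library. In the Ubd class 46.6% of control and 51.0% of Dnmt1iECKO cells had both at full depth, and 19.4% and 22.5% when thinned. Within that class Cxcl10 was, when thinned, in 54.1% (36.9 to 70.5) of Cxcl9-positive and 42.4% of Cxcl9-negative control cells, and in 54.8% (38.7 to 70.2) and 45.0% in Dnmt1iECKO, which counting error did not separate. In thinned ECs outside that class Cxcl10 was in 32.9% (22.1 to 45.1) of 70 Cxcl9-positive and 9.90% (9.01 to 10.9) of Cxcl9-negative control cells. In Dnmt1iECKO it was in 32.5% (18.6 to 49.1) of 40 Cxcl9-positive and 9.98% (8.57 to 11.5) of Cxcl9-negative cells. The intervals there were apart in both libraries. In macrophages the share with both was 27.0% (22.5 to 31.8) in the control and 32.8% (29.9 to 35.9) in the Dnmt1iECKO library, in stroma 7.50% and 9.93%, and in dendritic cells 8.54% and 13.6%. When thinned these shares were 12.1% and 14.2%, 3.94% and 4.69%, and 3.66% and 5.88%, in the same order.

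ECs with Cxcl9 were compared with ECs without it for 17 genes of the pathway, a split made after the data were seen and one that deeper cells favour (medians of 15210 against 9881 UMIs in the control and 16401 against 9808 in the Dnmt1iECKO library). In the control, 2 of 16 genes with enough UMIs were past 2-fold higher and 1 lower, against 7.09% and 5.94% of all genes. In the Dnmt1iECKO library 2 were higher and 2 lower, against 5.29% and 7.42%. Irf8, a transcription factor of the interferon response, was higher in both, at 58.3 against 21.7 CPM and at 74.7 against 29.1 CPM. Dpp4, the peptidase that trims and inactivates CXCR3 ligands, was lower in both, at 82.4 against 174 CPM and at 83.6 against 172 CPM. Tnf was past 2-fold higher in the control only by this rule, at 2.75 against 1.10 CPM from 13 and 54 UMIs, and was 2.58 against 2.88 CPM in the Dnmt1iECKO library. Pf4, a platelet chemokine that also binds CXCR3, was 16.3 against 26.2 CPM in the control library and 12.3 against 31.1 CPM in the Dnmt1iECKO library. Dnmt1 was 28.1 against 27.8 CPM in the Dnmt1iECKO library, and 60.6 against 50.5 CPM in the control.

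The same split in macrophages put 5 of 16 pathway genes past 2-fold higher and 1 lower in the control, where 6.56% and 6.45% of all genes were, and 5 of 17 higher and 1 lower in the Dnmt1iECKO library, where 6.89% and 6.42% were. Socs1, a feedback inhibitor of interferon signalling, was 43.9 against 17.4 CPM and 64.9 against 24.2 CPM. Dpp4 was higher in macrophages with Cxcl9, with log2 ratios of 2.08 and 2.48, the opposite direction to that in ECs. Irf8 was higher, at 1.25 and 1.04, and Ackr3 lower, at -2.57 and -2.90. Pf4 was past 2-fold higher in the control only, at 1.10 beside -0.64. Ifng was past 2-fold higher in the Dnmt1iECKO library, from 27 and 0 UMIs, and had too few UMIs in the control. In stroma 2 of 15 genes were higher and 3 lower in the control, against 4.58% and 11.4% of all genes, and 3 of 16 higher and 3 lower in the Dnmt1iECKO library, against 4.91% and 11.1%. Ackr3 was lower there, with log2 ratios of -2.72 and -2.71, as were Dpp4, at -2.97 and -2.69, and Pf4, at -1.66 and -1.04. For Dpp4 this was the direction seen in ECs. Socs1 was past 2-fold higher in the control only, at 1.17 beside -0.12, and Jak2 in the Dnmt1iECKO library only, at 1.08 beside 0.78. Tnf was higher in the Dnmt1iECKO library, from 16 and 5 UMIs, and had too few UMIs in the control. The split also follows the clusters of each class, whose part in these values was not tested.

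Between the libraries the same list hardly moved in ECs. Of 16 measured genes 1 was past 2-fold higher and none lower, beside 3.52% and 2.27% of all genes, with a median log2 ratio of 0.04 beside -0.01 over all genes. The one past 2-fold was Tnf, at 1.24 and 2.84 CPM from 67 and 68 UMIs. The receptor chain Ifngr1 was at 151 and 154 CPM, and Irf1 at 1165 and 1098 CPM. Ackr3, a decoy receptor that takes up CXCL11, was at 101 and 132 CPM, and Irf8 at 24.9 and 35.8 CPM. Ifng itself gave 1 and 2 UMIs in ECs. In the Ubd class 15 genes were measured and none was past 2-fold, beside 2.87% of all genes higher and 1.36% lower, with Irf8 at 83.7 and 91.8 CPM.

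Cxcl16 was flat over ECs. It was 38.8 CPM (37.2 to 40.5) in the control and 36.2 CPM (33.8 to 38.7) in the Dnmt1iECKO library, with a log2 ratio of -0.10 (-0.22 to 0.01), and was present in 27.2% and 27.9% of cells with at most 10 and 8 UMIs in any cell. Aerocytes carried most of it, at 64.2 CPM (60.7 to 67.9) and 64.5 CPM (58.5 to 70.8), and held 59.6% and 50.1% of the EC UMIs. General capillary ECs, at 20.5 and 22.2 CPM, were below aerocytes in both libraries beyond counting error. Venous ECs were at 51.3 and 36.7 CPM (log2 ratio -0.48, -0.87 to -0.10), and the Ubd class at 38.2 and 28.0 CPM (log2 ratio -0.45, -0.91 to 0.00, and 0.03 without the 10 highest cells), so Cxcl16 did not share the pattern of Cxcl9 and Cxcl10 over classes. Among ECs with Cxcl9 it was 43.0 against 38.4 CPM without it in the control and 29.8 against 37.3 CPM in the Dnmt1iECKO library. B cells served as background, at 1.74 and 1.23 CPM. Its proteases Adam10 and Adam17 were at 141 and 144 CPM and at 56.5 and 59.0 CPM in ECs.

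Macrophages were the largest source of Cxcl9 and Cxcl16 in both libraries. They numbered 367 control and 981 Dnmt1iECKO cells, with all 10 markers detected. Cxcl9 was 750 CPM (734 to 766) in the control and 1026 CPM (1014 to 1038) in the Dnmt1iECKO library, giving a log2 ratio of 0.45 (0.42 to 0.49), and was in 42.0% (36.9 to 47.2) and 55.1% (52.0 to 58.3) of cells. Cxcl16 was 332 and 447 CPM, giving a log2 ratio of 0.43 (0.38 to 0.48). Cxcl10 was 464 and 444 CPM, giving a log2 ratio of -0.06 (-0.11 to -0.02), which was 0.16 without the 10 highest cells. For Cxcl9 that ratio was 0.75. The macrophage clusters differed from each other far more than the libraries did. The cluster led by Ccl8 and C1qa had Cxcl9 at 1693 and 1869 CPM, that led by Gpnmb and Fabp5 at 399 and 472 CPM, and that led by Kcnip4 and Chil3 at 36.0 and 55.3 CPM. Cxcl16 followed the same order, at 613 and 696, 334 and 411, and 29.6 and 21.1 CPM. In the control the Kcnip4 and Chil3 cluster (129 cells, 35.1% of macrophages) and the Ccl8 and C1qa cluster (126 cells) were nearly equal in size. In the Dnmt1iECKO library the Ccl8 and C1qa cluster was the largest, with 465 cells or 47.4% of macrophages, and the Kcnip4 and Chil3 cluster had 250 cells.

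In dendritic cells, of which 82 and 198 were found, Cxcl16 was even, at 483 CPM (454 to 513) and 473 CPM (453 to 493), in 95.1% and 84.3% of cells. Cxcl9 was 296 and 463 CPM. Cxcl10 was 33.9 CPM (26.6 to 42.7) in the control and 261 CPM (247 to 276) in the Dnmt1iECKO library, giving a log2 ratio of 2.95 (2.60 to 3.31), past 2-fold where 4.33% of all genes were past 2-fold higher and 3.12% lower. The share of cells with Cxcl10 overlapped, at 19.5% (11.6 to 29.7) and 25.3% (19.4 to 31.9), and 10 cells held 91.7% and 87.7% of the UMIs. The cluster led by Il12b and Ccl22 held 86.6% and 92.4% of the dendritic cells. Cxcl9 in dendritic cells was as uneven, with 93.9% and 75.4% of its UMIs in 10 cells, and its log2 ratio of 0.65 was 2.46 without them.

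Stroma, made up of fibroblasts and of pericytes with smooth muscle, had Cxcl9 at 641 CPM (623 to 659) in 533 control cells and at 916 CPM (896 to 937) in 534 Dnmt1iECKO cells. The largest stroma cluster was that led by Mfap4 and Inmt in the control (40.5% of cells, median 2925 UMIs) and that led by Hs6st3 and C7 in the Dnmt1iECKO library (48.1%, median 18375 UMIs). Cxcl9 was 123 and 1619 CPM in the former, with 538 of 779 Dnmt1iECKO UMIs in 1 cell, and 909 and 1234 CPM in the latter. Only 11.6% (9.04 to 14.7) and 15.7% (12.8 to 19.1) of the cells had a UMI, and single fibroblasts held up to 1092 and 1340 Cxcl9 UMIs. Without the highest cell the levels were 507 and 765 CPM. Fibroblasts had 728 and 1033 CPM, while pericytes and smooth muscle cells went the other way, from 225 to 40.1 CPM with 10 and 6 positive cells. Cxcl10 in stroma was 523 and 641 CPM, a log2 ratio of 0.29 that was -0.50 with clusters at a resolution of 2, and Cxcl16 was 69.8 and 72.4 CPM (log2 ratio 0.05, -0.12 to 0.22). No ligand was past 2-fold in stroma, where 3.56% of all genes were past 2-fold higher and 3.31% lower.

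T cells held the largest share of both receptors. In ECs Cxcr3 had 3 control and 2 Dnmt1iECKO UMIs and Cxcr6 1 and 3 UMIs, with at most 1 UMI in any cell. T cells numbered 334 and 1287, with all 8 T-cell markers detected. Cxcr3 was 75.1 CPM (66.2 to 84.9) in the control and 62.6 CPM (58.4 to 66.9) in the Dnmt1iECKO library, in 32.6% (27.6 to 37.9) and 27.6% (25.2 to 30.1) of T cells. Its log2 ratio of -0.26 (-0.47 to -0.06) was 0.02 (-0.22 to 0.26) without the 10 highest cells of each library. Cxcr6 was 333 CPM (314 to 353) and 216 CPM (208 to 224), giving a log2 ratio of -0.62 (-0.72 to -0.52). The share of T cells with Cxcr6 was 47.9% (42.4 to 53.4) in the control and 36.4% (33.7 to 39.1) in Dnmt1iECKO. Both receptors were in 23.7% (19.2 to 28.6) of control and 14.8% (12.9 to 16.8) of Dnmt1iECKO T cells, at median depths of 8977 and 9143 UMIs. Neither receptor was past 2-fold in T cells, where 3.50% of all genes were past 2-fold higher and 2.96% lower.

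**Figure D5:**
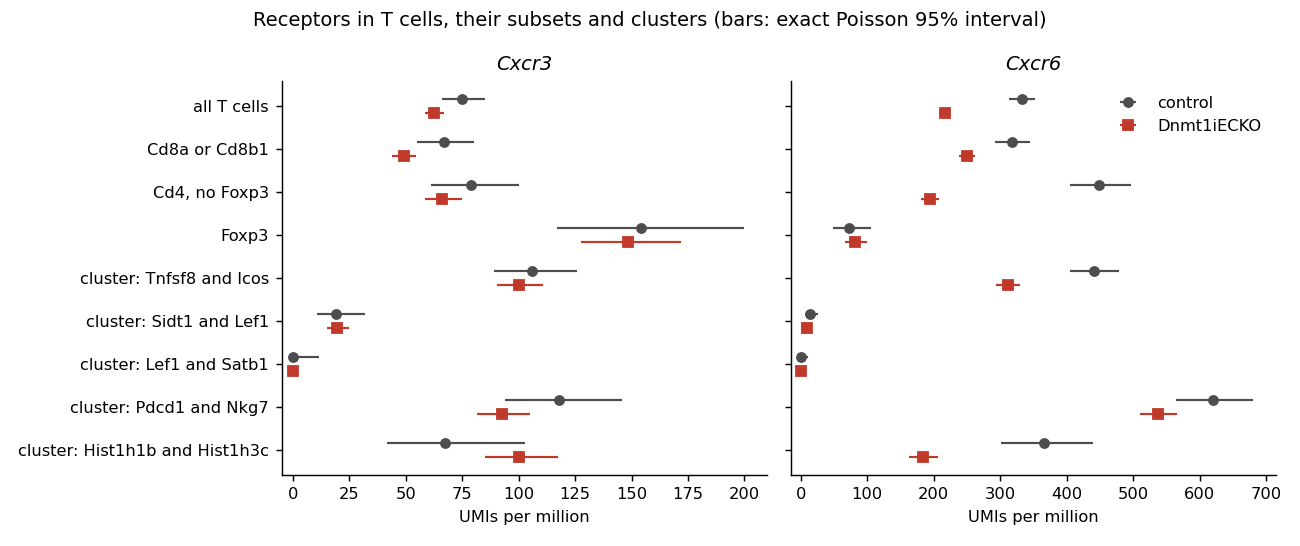
Cxcr3 (left) and Cxcr6 (right) in CPM in all T cells, in subsets by Cd8a or Cd8b1, by Cd4 without Foxp3 and by Foxp3, and in clusters named by 2 leading genes, control as grey circles and Dnmt1iECKO as red squares, with exact Poisson 95% intervals. Cxcr6 was highest in the Pdcd1 and Nkg7 cluster, at 620 and 538 CPM, while Cxcr3 was highest in Foxp3 cells, at 154 and 148 CPM.

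The receptors overlapped in T cells. Cxcr6 was in 72.5% (63.1 to 80.6) of control T cells with Cxcr3 and in 36.0% (29.7 to 42.6) of those without, and in 53.5% (48.2 to 58.8) and 29.8% (26.9 to 32.9) in Dnmt1iECKO. In the cluster led by Pdcd1 and Nkg7, genes of exhausted and cytotoxic T cells, Cxcr6 was 620 CPM (564 to 681) in the control and 538 CPM (510 to 566) in the Dnmt1iECKO library, Cxcr3 was 118 and 92.7 CPM, and 93.8% and 91.1% of cells had at least 1 of the receptors. In the cluster led by Tnfsf8 and Icos Cxcr6 was 441 and 311 CPM and Cxcr3 106 and 100 CPM. The cluster led by Sidt1 and Lef1 had 14.1 and 10.1 CPM of Cxcr6. In the cluster led by Lef1 and Satb1 neither receptor had a UMI in 46 control cells, and Cxcr6 had 2 UMIs in 266 Dnmt1iECKO cells. Foxp3 T cells, of which there were 30 and 89, had a higher CPM of Cxcr3 than Cd8 or Cd4 T cells in both libraries, at 154 and 148 CPM against 66.8 and 49.2 CPM and 78.7 and 66.3 CPM, and less Cxcr6, at 73.1 and 81.6 CPM. Of the 30 control Foxp3 cells, 5 had Cxcr3 with Cxcr6 and 7 had Cxcr3 without it, beside 40 and 17 of 148 Cd8 T cells. In the Dnmt1iECKO library these were 14 and 34 of 89 Foxp3 cells, beside 97 and 69 of 572 Cd8 T cells.
The Cxcr6 difference was largest in Cd4 T cells without Foxp3, from 449 CPM (405 to 496) in 100 control cells to 194 CPM (181 to 208) in 411 Dnmt1iECKO cells (log2 ratio -1.21, and -0.80 without the 10 highest cells), against 318 and 250 CPM in Cd8 T cells. For this Cd4 subset neither the share of all genes past 2-fold nor a value with the control's cluster makeup is given. The cluster led by Tnfsf8 and Icos held 64.0% and 51.3% of the subset. The clusters made up different shares of T cells: that led by Tnfsf8 and Icos 40.1% and 31.5%, and that led by Lef1 and Satb1 13.8% and 20.7%. With the control's cluster makeup in both libraries Cxcr3 had a log2 ratio of -0.09 and Cxcr6 of -0.42.

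T cells also showed the inducer. Ifng, the interferon-γ gene, was 108 CPM (97.6 to 120) in the T cells of the control and 53.3 CPM (49.5 to 57.4) in those of Dnmt1iECKO. These are levels per UMI of T cells, which numbered 334 and 1287, and not amounts of Ifng in a library. Unlike the receptors, Ifng is not given with the control's cluster makeup. Ifng was the 1 of 16 measured pathway genes past 2-fold lower in T cells. Pf4, with 1 and 29 UMIs, was the 1 past 2-fold higher, beside 3.50% of all genes higher and 2.96% lower. Cxcl10 in T cells was 133 and 67.9 CPM, and after thinning it was in 6.99% and 5.71% of cells, beside the 5.22% and 3.88% of epithelium. Its log2 ratio of -0.97 was 0.20 without the 10 highest cells. Cxcl16 was 10.9 and 2.34 CPM, with 33 of the 37 control UMIs in 1 cell. Cxcl16 was the member past 2-fold in T cells, and without that cell the control level was 1.19 CPM. In macrophages Cxcr3, at 0.98 and 2.34 CPM, and Cxcr6, at 1.07 and 2.26 CPM, were past 2-fold higher, where 2.56% of all genes were and 4.10% were lower, from 11 and 65 UMIs and from 12 and 63 UMIs. The T-cell marker list in macrophages summed to 24.5 and 52.6 CPM.

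Summed over all analysed cells, the source of each gene depended on how many cells of each class were in the library, which the sort sets. ECs held 14.6% of the Cxcl9 UMIs of the control and 6.76% of those of the Dnmt1iECKO library, macrophages 44.9% and 62.5%, and stroma 26.7% and 17.1%. For Cxcl10 ECs held 30.6% and 16.2% and macrophages 14.2% and 30.4%. A cluster led by Hmga2 and Crabp1, with no cell type given, held 30.5% and 18.2% of Cxcl10. For Cxcl16 macrophages held 43.6% and 71.2% and ECs 24.4% and 4.96%. T cells held 55.3% and 63.3% of Cxcr3 and 88.6% and 93.4% of Cxcr6. The Hmga2 and Crabp1 cluster held 24.5% and 15.6% of Cxcr3, and B cells 5.21% and 6.74%. Natural killer cells were at 86.7 and 24.4 CPM of Cxcr6.

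Genes with the most similar pattern were ranked by Pearson's r of log2(CPM + 10) over 30 points, 15 classes in each library, among 15700 genes. The points share libraries, so r is a description only. Closest to Cxcl9 were Sh3pxd2b (0.80), Ank2, Tubb6, 1700061G19Rik and Procr. Closest to Cxcl10 were Gm4117 (0.85), Gbp2, Gbp5, Pnp and Ampd2, of which the Gbp genes encode interferon-induced GTPases. Closest to Cxcl16 were Dapk1 (0.93), Dnajb14, Arl8b, Vwa5a and Spred1. Closest to Cxcr3 were Xlr4a (0.98), Cd28, Xlr4b, Cd5 and Ctla4, and closest to Cxcr6 were Traj12 (0.98), Kcnc1, 5830468F06Rik, Traj18 and Trat1. Between members r was 0.71 for Cxcl9 with Cxcl10 and 0.95 for Cxcr3 with Cxcr6.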

How the data were processed

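The authors deposited, for each of 2 libraries, a matrix of UMI counts per gene and cell, which Cell Ranger 9.0.1 produced against mm10 from 10x GEM-X 3′ v4 libraries. The authors' counts were used unchanged. Cells with over 10% mitochondrial UMIs or fewer than 500 detected genes were left out, and doublets were removed at 0.4% per 1000 cells. Cells were clustered with scanpy 1.11.5 and leidenalg 0.10.2 (2000 variable genes, 30 components, 15 neighbours, resolution 1), and 50 clusters were named from marker lists. Clusters outside the endothelium with Cdh5 in over 50% of cells were left out of the other classes. Levels are UMIs summed per class and divided by the class total (CPM), with exact Poisson intervals. Shares carry Clopper-Pearson intervals and ratios exact conditional intervals, all at 95%. Shares were repeated with each cell thinned to 2000 UMIs. UMIs limit counting of PCR copies, and intervals cover counting error only. CPM are UMIs per 1000000. A gene counts as past 2-fold among genes with at least 20 UMIs in both groups together. The upper limit for a count of 0 is 3 counts. No test was made, since each condition had 1 library, and cells are not replicates. Calculations used scipy 1.17.1 and were tested on simulated counts.

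Named genes were the members, Dnmt1, the gate genes, the pathway genes (those past 2-fold, and others for their role) and, for each member with a value, the 5 genes of highest correlation among genes with at least 100 UMIs. The members and lists were chosen with earlier results of these data known. Alternatives in gates, filters, depth and class makeup are given in the closing section. Cxcl11 was not analysed here. One gene of the pathway list, which stays in the counts, is not reported here by name.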

Additional observations from a re-analysis of the deposited data

Results flagged for a closer look

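For each ligand and receptor, classes in which the libraries differed in opposite directions were picked out, and none of these differences between classes was tested. Cxcl9 had a log2 ratio of 0.67 in aerocytes and -1.58 in other ECs. Both ends changed sign under alternatives, aerocytes to -0.17 without the 10 highest cells and other ECs to 0.74 by the gate alone and 0.47 with classes as clusters. Cxcl10 had 2.95 in dendritic cells and -0.97 in T cells. Cxcl16 had 0.43 in macrophages and -2.22 in T cells, the latter from 1 control cell. Cxcr3 had 1.26 in macrophages and -0.26 in T cells, and Cxcr6 had 1.09 in macrophages and -0.95 in dendritic cells, where the UMIs of each library came from 3 and 4 cells.

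Cell classes outside the comparisons of the report also carried the ligands. For these classes only ratios past 2-fold higher in the Dnmt1iECKO library were picked, so falls do not appear. An example of a fall is Cxcr6 in NK cells, with 50 UMIs in 80 control and 45 in 274 Dnmt1iECKO cells. Cxcl9 in monocytes had 4 UMIs in the control and 513 in the Dnmt1iECKO library (4.02 and 132 CPM), a log2 ratio of 5.04, with 10 cells holding 92.6% of the latter. Cxcl10 had log2 ratios of 1.19 in NK cells (15 and 110 UMIs), 2.14 in neutrophils (4 and 103 UMIs) and 1.71 in alveolar epithelium (166 and 269 UMIs). In mesothelial cells Cxcl9 had a log2 ratio of 1.95 and Cxcr6 of 2.16, the latter with all 22 Dnmt1iECKO UMIs in 1 cell.

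A cluster led by Hmga2 and Crabp1, to which no cell type is given here, had 122 control and 198 Dnmt1iECKO cells with medians of 80562 and 86840 UMIs. It was at 996 and 406 CPM of Cxcl10, in 82.0% and 80.8% of cells, and held 30.5% and 18.2% of all Cxcl10 UMIs. In the control 1 of its cells held 2978 of 11231 Cxcl10 UMIs. Cxcr3 was at 10.0 and 11.5 CPM there, in 22.1% and 26.3% of cells, against 0 and 0.38 CPM in alveolar epithelium.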

How the results depend on the processing

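The log2 ratio of Cxcl9 over ECs kept its sign under all 18 alternatives, of which 6 moved out of the interval of the main value. Beside the main 1.34 it ran from 0.10 to 1.39. It was 1.05 as a mean over cells, 1.03 thinned, 0.97 without the 10 highest cells and 0.49 with the control's class makeup. Without cells with C1q UMIs it was 1.08, and without cells with a Ubd UMI 0.10, with an interval of -0.07 to 0.27 that spanned 0. Interferon-γ induces both Ubd and Cxcl9, so the last of these leaves out cells that are high in Cxcl9. In the Ubd class the log2 ratio of Cxcl9 was 0.85 with gates at 1 UMI, 0.76 by the gate alone, 0.29 as a mean over cells and 0.25 thinned. There it was 0.19 without C1q cells and 0.39 with Ubd called by 1 UMI after thinning. Cxcl10 over ECs was 0.14 by the gate alone, 0.32 with doublets at 0.8% per 1000, 0.31 as a mean over cells, 0.16 without the 10 highest cells, -0.11 with the control's makeup and -0.012 without Ubd cells. Cxcl16 over ECs was -0.24 when thinned. Cxcl9 in macrophages was 0.75, Cxcr3 in T cells 0.017 and Cxcr6 in T cells -0.52 without the 10 highest cells, and Cxcr6 was -0.42 with the control's cluster makeup. The share of ECs with both ligands was 0.99% and 2.03% when thinned. With at least 100 UMIs, 1.38% of genes were past 2-fold higher and 0.775% lower in ECs. Cxcl9 in other ECs reversed to 0.74 by the gate alone and 0.47 with classes as clusters. Alternatives that change the cells or the makeup describe how the values depend on them, and no cause was tested. Of 294 alternatives of the other 31 results, 250 kept the sign. The alternatives on C1q, Ubd after thinning, cells without Ubd, T-cluster makeup, the Cdh5 limit, the shallow EC cluster and the highest cells outside ECs were chosen after seeing the data. No paired analysis was possible because each condition had 1 library, and for the same reason no replicate could be left out.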
